A study of Mus musculus with 2 samples.

Results

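The suppressor of cytokine signalling (SOCS) family comprises Socs1 to Socs7 and Cish. These 8 genes were found by their symbols among the 32285 genes of a single-cell RNA sequencing experiment on lung endothelial cells (ECs). All 8 were counted in both libraries. Wild-type C57BL/6 mice, 8 to 10 weeks old and male per the study's methods, received PBS (control) or 400000 B16-F10 cells, both in 100 microlitres, into the tail vein. B16-F10 cells derive from a melanoma of mouse skin and were stained with CellTracker green. After 6 h the lungs were taken and cells with PECAM1 but no PTPRC on their surface were sorted, together with the stained tumour cells of the injected lungs. The labels give 2 mice per treatment and the study's methods 3, pooled, so each group is 1 library. No test between groups was possible, and the library and the treatment cannot be told apart. The intervals below are 95% intervals and cover counting error only.

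SOCS proteins shut down cytokine signals in the cells that receive them. A cytokine receptor activates Janus kinases (JAKs), which activate STAT transcription factors, and STATs switch on SOCS genes. The SOCS proteins then bind the receptor or the kinase through an SH2 domain and, through a SOCS box, bring in a ubiquitin ligase. SOCS1 and SOCS3 also block JAK activity directly, and SOCS3 acts on receptors that share the gp130 chain, such as those for interleukin-6 and leukemia inhibitory factor. CISH and SOCS2 are best known as STAT5-induced brakes on growth hormone and related cytokines. SOCS4 and SOCS5 have been tied to the epidermal growth factor receptor and SOCS6 and SOCS7 to insulin signalling.

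Promoter windows from RefSeq (GRCm38.p6, 250 bases before to 50 after the gene's start) were at hand for Socs1, Socs3, Socs4 and Cish. They were searched for TTCNNNGAA, the palindromic letters that STAT dimers commonly bind, and on both strands for GAAA, any 2 bases and GAAA again, the core of interferon response elements. The 3 windows with a match are shown because these genes respond to STATs and interferons in textbook accounts. Capitals mark the matches, and each window reads 5′ to 3′ on the strand of its gene.
Socs3, chr11:117969317-117969616, minus strand: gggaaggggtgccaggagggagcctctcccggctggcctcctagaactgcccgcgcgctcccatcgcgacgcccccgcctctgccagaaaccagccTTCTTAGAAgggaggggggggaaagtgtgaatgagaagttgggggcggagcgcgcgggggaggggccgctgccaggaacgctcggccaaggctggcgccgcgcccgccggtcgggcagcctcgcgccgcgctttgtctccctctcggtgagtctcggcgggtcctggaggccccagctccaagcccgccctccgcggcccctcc
Cish, chr9:107296409-107296708, plus strand: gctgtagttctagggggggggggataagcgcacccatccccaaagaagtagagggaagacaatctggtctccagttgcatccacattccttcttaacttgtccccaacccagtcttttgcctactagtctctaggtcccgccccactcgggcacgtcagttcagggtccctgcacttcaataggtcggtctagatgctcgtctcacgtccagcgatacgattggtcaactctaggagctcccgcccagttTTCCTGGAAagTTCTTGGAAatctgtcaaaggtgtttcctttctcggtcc
Socs1, chr16:10785487-10785786, minus strand: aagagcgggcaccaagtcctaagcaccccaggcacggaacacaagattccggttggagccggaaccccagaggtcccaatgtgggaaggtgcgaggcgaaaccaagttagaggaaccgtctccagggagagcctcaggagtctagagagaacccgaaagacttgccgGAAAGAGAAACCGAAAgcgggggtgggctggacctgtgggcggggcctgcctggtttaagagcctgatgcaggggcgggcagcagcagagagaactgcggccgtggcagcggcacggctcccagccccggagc

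The window of Socs3 held 1 match to TTCNNNGAA, whose first base lies 154 bases before the RefSeq start. The window of Cish held 2, the first beginning at that start and the second 11 bases further on. Among 27025 promoter windows of this length, 8.47% held at least 1 match and 0.463% held 2 or more. The window of Socs1 held 2 matches to the interferon motif that overlap each other, with first bases 83 and 77 bases before the start, and 3.49% of all windows held this motif. The window of Socs4 held neither motif. A match describes letters and not a bound site.

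In the GENCODE M21 annotation of GRCm38, all 8 genes are protein coding. Socs3 (ENSMUSG00000053113) lies on chromosome 11 from 117966079 to 117970047 on the minus strand, Socs1 (ENSMUSG00000038037) on chromosome 16 from 10782240 to 10785536 on the minus strand, and Cish (ENSMUSG00000032578) on chromosome 9 from 107296026 to 107302784 on the plus strand. Socs2 (ENSMUSG00000020027) covers chromosome 10 from 95385362 to 95417180 on the minus strand, and Socs5 (ENSMUSG00000037104) chromosome 17 from 87107679 to 87137839 on the plus strand. The start of Socs3 and of Cish in GENCODE lies upstream of the RefSeq start used for the windows. Cish overlaps 2 annotated genes on the opposite strand, and Socs6 overlaps 3 processed pseudogenes, 2 of them on its own strand. The other 6 members overlap no annotated gene.

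After filtering, 7830 control cells and 7767 B16-F10 cells remained, with medians of 7510 and 8557 UMIs (unique molecular identifiers, each marking 1 captured RNA molecule). Of the barcodes with 1000 to 5000 genes, 20 occurred in both libraries. In the ECs, Pecam1 was detected in 99.2% and 99.1% of cells, and Ptprc in 0.232% and 1.01%. Vessel classes were named from markers after clustering without the SOCS genes, the pathway genes and 44 markers of the reactive capillary state described by the study (rCap). The sums held 4552 and 4237 general capillary (gCap)-like cells, 1446 and 968 aerocyte capillary (aCap)-like, 180 and 141 artery-like, 263 and 262 vein-like, and 58 and 51 lymphatic (LEC)-like cells. Cluster 6 of the gCap-like cells came mostly from B16-F10 lungs (51 and 917 cells) and cluster 11 mostly from control lungs (339 and 70). The shallow aCap-like cluster 8 (median 4445 UMIs) also came mostly from control lungs (485 and 64 cells). A cluster mostly of 1 library may reflect that library and not a cell type.

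Socs3 was the member with the largest ratio in gCap-like cells. Its 1987 UMIs in control lungs corresponded to 58.6 CPM (56.0 to 61.2), that is, UMIs of the gene per 1000000 UMIs of the class, and its 17602 UMIs in B16-F10 lungs to 479 CPM (472 to 486). The log2 ratio of B16-F10 over control was 3.03 (2.96 to 3.10), an 8.17-fold higher level. Socs3 held rank 30 of the 13137 genes measured in these cells, where measured means that the sums of both libraries held 50 or more UMIs. On the full sums the aCap-like cells had the same ratio within counting error, although their levels were lower in both libraries. There Socs3 stood at 21.5 CPM (19.1 to 24.2) in control and at 173 CPM (166 to 181) in B16-F10 lungs. The log2 ratio was 3.01 (2.83 to 3.20), rank 20 of 11102 genes. When each cell was thinned (UMIs drawn at random down to 2000) in a single draw, the intervals lay barely apart. The ratios were then 3.58 (3.11 to 4.09) in aCap-like cells, from 41 and 331 UMIs, and 2.97 (2.84 to 3.10) in gCap-like cells. With each cell given the same weight, they were 3.11 in aCap-like and 3.00 in gCap-like cells. The aCap-like cluster 2 alone gave 2.84 (2.65 to 3.03). Whether the capillary classes differ in this ratio was not tested beyond counting error.

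Larger vessels had more Socs3 in control lungs and smaller ratios. In artery-like cells, 105 CPM (88.8 to 124) stood against 388 CPM (355 to 423), a log2 ratio of 1.88 (1.62 to 2.16). Vein-like cells had the highest level of the 5 classes in either library, with 179.7 CPM (164 to 196) in control and 514 CPM (488 to 540.3) in B16-F10 lungs, and a log2 ratio of 1.52 (1.37 to 1.66). In LEC-like cells, 19 and 37 UMIs gave 39.5 CPM (23.8 to 61.7) and 76.9 CPM (54.1 to 106), a log2 ratio of 0.96 (0.13 to 1.84). The ratio of gCap-like cells was above that of artery-like cells by 1.15 (0.87 to 1.42), of vein-like by 1.51 (1.36 to 1.67) and of LEC-like by 2.07 (1.27 to 2.87) on the log2 scale. In control lungs the order of Socs3 levels was vein-like, artery-like, gCap-like, LEC-like and aCap-like, where gCap-like and LEC-like did not differ beyond counting error. In B16-F10 lungs the order was vein-like, gCap-like, artery-like, aCap-like and LEC-like, and each class differed from the next.

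**Figure D1:**
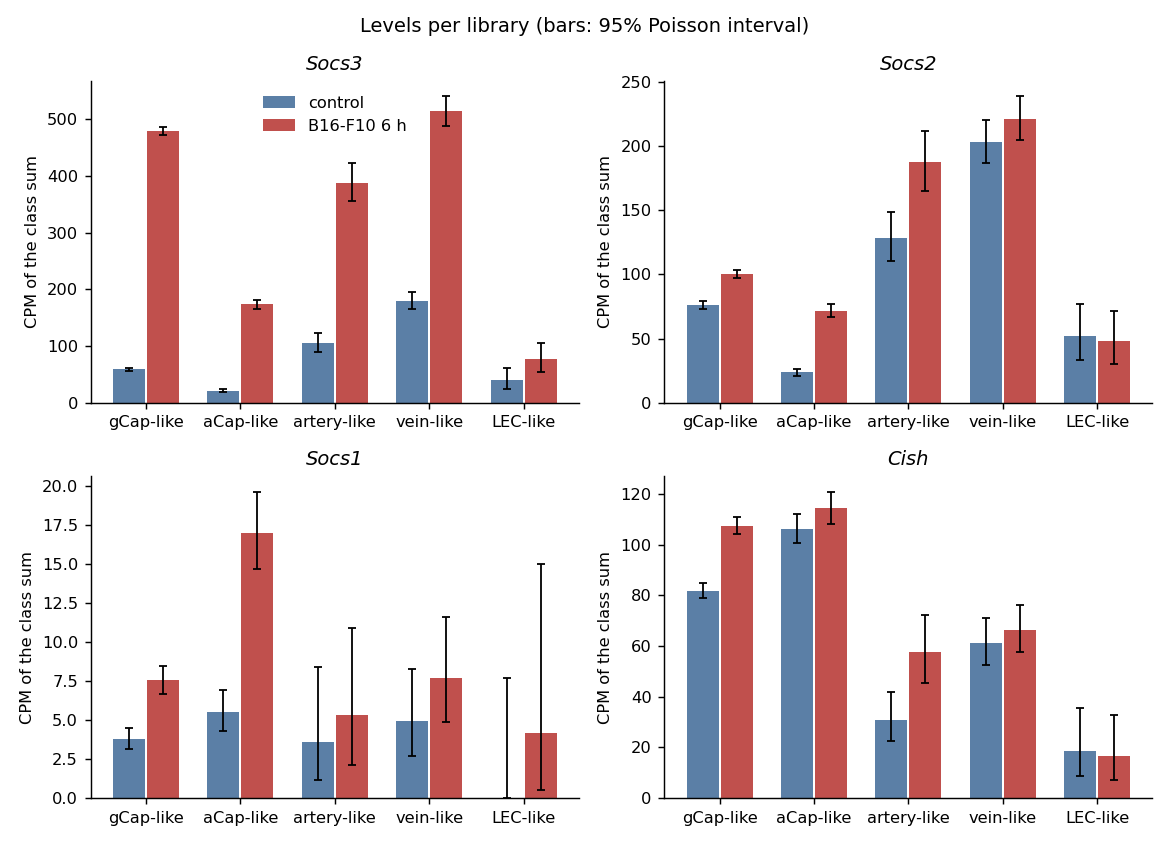
Level of Socs3, Socs2, Socs1 and Cish in CPM of the class sum (vertical axes, each starting at 0) for the 5 vessel classes (horizontal axes) in the control library (blue) and the B16-F10 library (red), with 95% Poisson intervals as bars. Socs3 is higher in the B16-F10 library in each class, while Socs2 differs most in aCap-like cells, from 23.6 to 71.4 CPM.

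Free RNA in droplets without a cell also held more Socs3 in the B16-F10 library. Barcodes with 1 to 100 UMIs had 54.3 CPM in control and 366 CPM in B16-F10 lungs. Scaled to its estimated share of the class sums (2.02% and 3.16% in gCap-like cells), free RNA would supply 1.10 and 11.6 CPM of the 58.6 and 479 CPM. The estimated share was highest in vein-like cells of the B16-F10 library, at 7.50%, which would supply 27.4 of 514 CPM.

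The difference in Socs3 also showed in how many cells held a transcript. With each cell thinned to 2000 UMIs, a Socs3 UMI was seen in 9.27% of the 4489 control gCap-like cells (8.43 to 10.2%). In B16-F10 lungs this held for 48.0% of 4210 such cells (46.5 to 49.5%). Without thinning, at medians of 7270 and 8395 UMIs, these shares were 23.6% and 76.8%. Free RNA alone would give 0.219% and 2.29% of thinned cells. Of the melanoma-like cells in the B16-F10 library, 1 of 77 thinned cells (1.30%, 0.0329 to 7.02%) had a Socs3 UMI, at a median of 8039.5 UMIs before thinning. Cells with 3 or more Socs3 UMIs made up 0.601% of control and 11.8% of B16-F10 gCap-like cells. In aCap-like cells, the share with a Socs3 UMI was 2.73% (1.95 to 3.71%) in control and 24.2% (21.5 to 27.1%) in B16-F10 lungs, so most of these cells had no Socs3 UMI at this depth. Free RNA alone would give 0.333% and 1.73% of the thinned aCap-like cells.

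**Figure D2:**
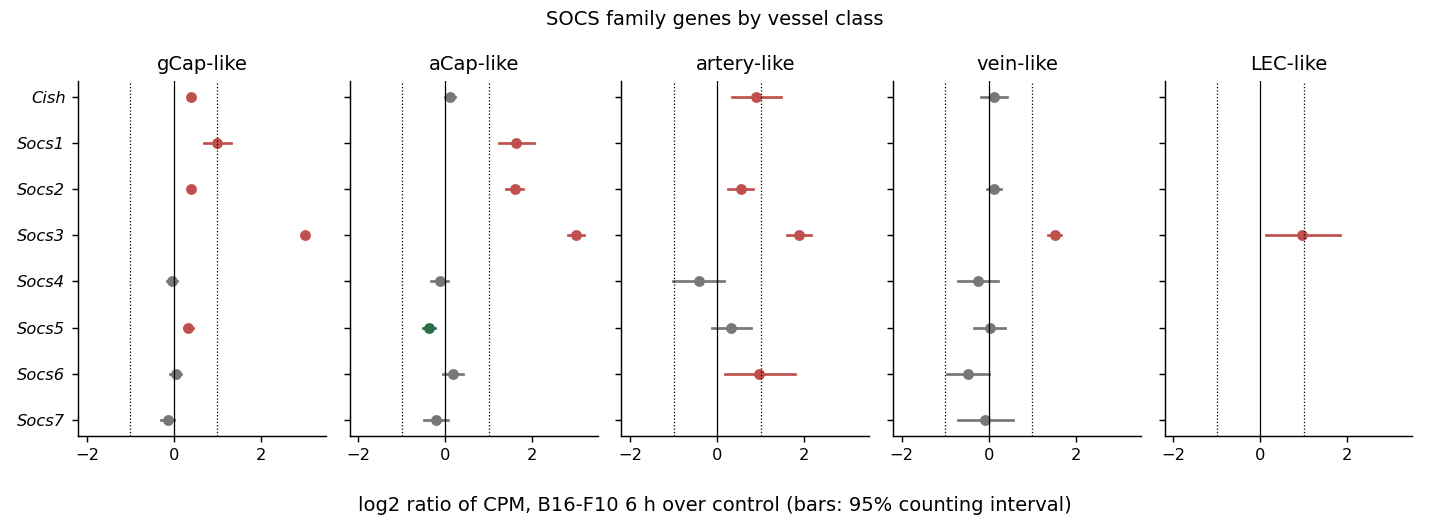
Log2 ratio of CPM, B16-F10 over control (horizontal axes), of the SOCS family genes (rows) in each vessel class (panels), for genes that count as measured. Points are ratios and bars 95% counting intervals, red above 0, green below 0 and grey where the interval holds 0, and dotted lines mark 2-fold. Socs3 stands at 3.03 in gCap-like and 3.01 in aCap-like cells, and Socs5 is on opposite sides of 0 in these classes.

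Among the 8 members in gCap-like cells, 1 (Socs3) was at least 2-fold higher in B16-F10 lungs, against 2.97% of all genes measured, and 0 were at least 2-fold lower, against 2.69%. Higher beyond counting error were 5 members (Cish, Socs1, Socs2, Socs3 and Socs5), against 28.8% of all genes, and 0 were lower, against 34.2%. The median log2 ratio of the members was 0.36 and that of all genes -0.04. In aCap-like cells, 3 of 8 members (Socs1, Socs2 and Socs3) were at least 2-fold higher, against 2.18% of genes. The same 3 were higher beyond counting error, against 27.9%, and 1 (Socs5) was lower, against 27.4%. Artery-like cells had 1 of 6 measured members at least 2-fold higher, against 2.05%, and 4 (Socs2, Socs3, Socs6 and Cish) higher beyond counting error, against 15.9%. In vein-like cells 1 of 7 measured members, Socs3, met both criteria, against 1.56% and 11.6% of genes. In LEC-like cells only Socs3 was measured, it was higher beyond counting error, against 10.1% of genes, and 0 members reached 2-fold, against 1.53%.

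Socs1, the other direct JAK inhibitor, was scarce. In gCap-like cells its level was 3.77 CPM (3.15 to 4.49, 128 UMIs) in control and 7.53 CPM (6.67 to 8.47, 277 UMIs) in B16-F10 lungs. The log2 ratio was 1.00 (0.69 to 1.31), a fold of 1.996 that lies just under the limit of 2. In aCap-like cells control lungs had 5.50 CPM (4.30 to 6.92) and B16-F10 lungs 17.0 CPM (14.6 to 19.6). Their log2 ratio of 1.63 (1.23 to 2.04) was above that of gCap-like cells by 0.63 (0.14 to 1.13). The aCap-like cluster 2 alone, without the shallow cluster 8, gave a lower value of 1.44 (1.03 to 1.86). Whether that value differs from the ratio of gCap-like cells was not tested. The aCap-like cells had the highest Socs1 level among the 5 classes in B16-F10 lungs, while in control lungs no class differed from the next beyond counting error. The 5 and 7 UMIs in artery-like cells and 14 and 23 in vein-like cells were too few to show a difference at this depth. In LEC-like cells there were 0 and 2 UMIs, both under the floor of 3 counts (6.24 and 6.23 CPM).

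The highest Socs1 level among ECs lay outside the named vessel classes. Cluster 12, an endothelial cluster without a vessel name, held 12 control and 345 B16-F10 cells and was led by Sox9 and Csf2. Its B16-F10 cells had 79 Socs1 UMIs, or 23.2 CPM (18.4 to 28.9). The interval overlaps that of the aCap-like cells of the same library. This cluster was singled out after its values were seen, and its 12 control cells held 0 Socs1 UMIs, which allows up to 28.4 CPM. Lymphoid-like cells of the same library, 26 in number, had 15 Socs1 UMIs, or 64.6 CPM (36.1 to 106).

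Socs2, a brake on growth hormone signalling, differed most in aCap-like cells. There it had 309 UMIs, or 23.6 CPM (21.03 to 26.4), in control and 776 UMIs, or 71.4 CPM (66.4 to 76.6), in B16-F10 lungs. The log2 ratio was 1.597 (1.41 to 1.79). Taken alone, the deeper aCap-like cluster 2 gave 1.502 (1.30 to 1.71), and the shallow cluster 8 gave 2.07 (1.27 to 2.84). In artery-like cells Socs2 was 128 CPM (110.0 to 148) and 187 CPM (165 to 212), a log2 ratio of 0.55 (0.26 to 0.83). Vein-like cells, which had the highest Socs2 level in both libraries, showed 203 CPM (187 to 220.3) and 221 CPM (204 to 239), and the interval of their log2 ratio, 0.12 (-0.04 to 0.29), held 0. On the log2 scale the ratio of gCap-like minus that of aCap-like cells was -1.204 (-1.41 to -1.0005), and aCap-like cells were above vein-like cells by 1.47 (1.22 to 1.72). Free RNA would supply 1.501 and 1.51 CPM of Socs2 in aCap-like cells.

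In gCap-like cells, Socs2 was 76.3 CPM (73.4 to 79.3) in control and 100.2 CPM (96.9 to 103) in B16-F10 lungs, a log2 ratio of 0.39 (0.32 to 0.47). This ratio depended on whether cluster 6 was counted. In cluster 6 Socs2 stood at 176 CPM (137 to 222) in the few control cells and 178 CPM (170 to 187) in the B16-F10 cells, while the other 6 gCap-like clusters had 43.9 to 92.0 CPM in control and 59.2 to 89.0 CPM in B16-F10 lungs. Cluster 6 was led by Lalba, Tmem252, Adamts9, Lama1, Asb4, Disp2, Ada, Grrp1, Scarb1 and Inhbb. Lalba, Disp2, Grrp1, Scarb1 and Inhbb are on the rCap list left out of clustering, and the study also names Tmem252 and Adamts9 as rCap markers, which that list does not hold. Without it, the log2 ratio of Socs2 in gCap-like cells was 0.0196. Within single gCap-like clusters, Socs2 was higher beyond counting error in 1 of 7, cluster 1, at 0.29 (0.11 to 0.47). Whether the make-up of the class or a change within its cells gave the ratio was not tested.

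Cish, the founding member and a STAT5 target, was 81.9 CPM (78.9 to 85.0) in control and 107 CPM (104 to 111) in B16-F10 gCap-like cells, a log2 ratio of 0.39 (0.32 to 0.46). Unlike Socs2, it was higher beyond counting error in 4 of the 7 gCap-like clusters taken singly, with log2 ratios from -0.05 to 0.47, and without cluster 6 its ratio was 0.29. In aCap-like cells it was 106 CPM (101 to 112) and 114 CPM (108 to 121), a log2 ratio of 0.11 (-0.005 to 0.22) within counting error of no difference. Artery-like cells had 43 and 76 UMIs, or 31.0 CPM (22.4 to 41.7) and 57.6 CPM (45.4 to 72.1), and a log2 ratio of 0.90 (0.34 to 1.47). In both libraries Cish was higher in aCap-like and gCap-like cells than in artery-like and LEC-like cells, the reverse of Socs2 in arteries and capillaries.

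Socs5, tied to growth factor receptor turnover, had opposite signs in the capillary classes. In aCap-like cells it had 1020 UMIs, or 77.9 CPM (73.2 to 82.8), in control and 651 UMIs, or 59.9 CPM (55.4 to 64.6), in B16-F10 lungs. The log2 ratio of -0.38 (-0.52 to -0.24) made it the member that was lower beyond counting error. Cluster 2 alone gave -0.38 (-0.53 to -0.23). In gCap-like cells it had 45.6 CPM (43.4 to 48.0) in control and 57.6 CPM (55.2 to 60.1) in B16-F10 lungs. Here the log2 ratio was 0.34 (0.24 to 0.43). The difference between the classes was 0.71 (0.54 to 0.89). The gCap-like value rested on cluster 6, where Socs5 was 52.0 CPM (32.2 to 79.5) in 51 control cells and 104 CPM (97.1 to 111) in 917 B16-F10 cells, and without that cluster the ratio was -0.0707. Socs5 was also higher in the shallow cluster 13, with 45.7 CPM (29.8 to 66.9) and 106 CPM (80.5 to 136). In clusters 1 and 4 Socs5 was lower in B16-F10 lungs beyond counting error, with log2 ratios of -0.23 and -0.39.

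**Figure D3:**
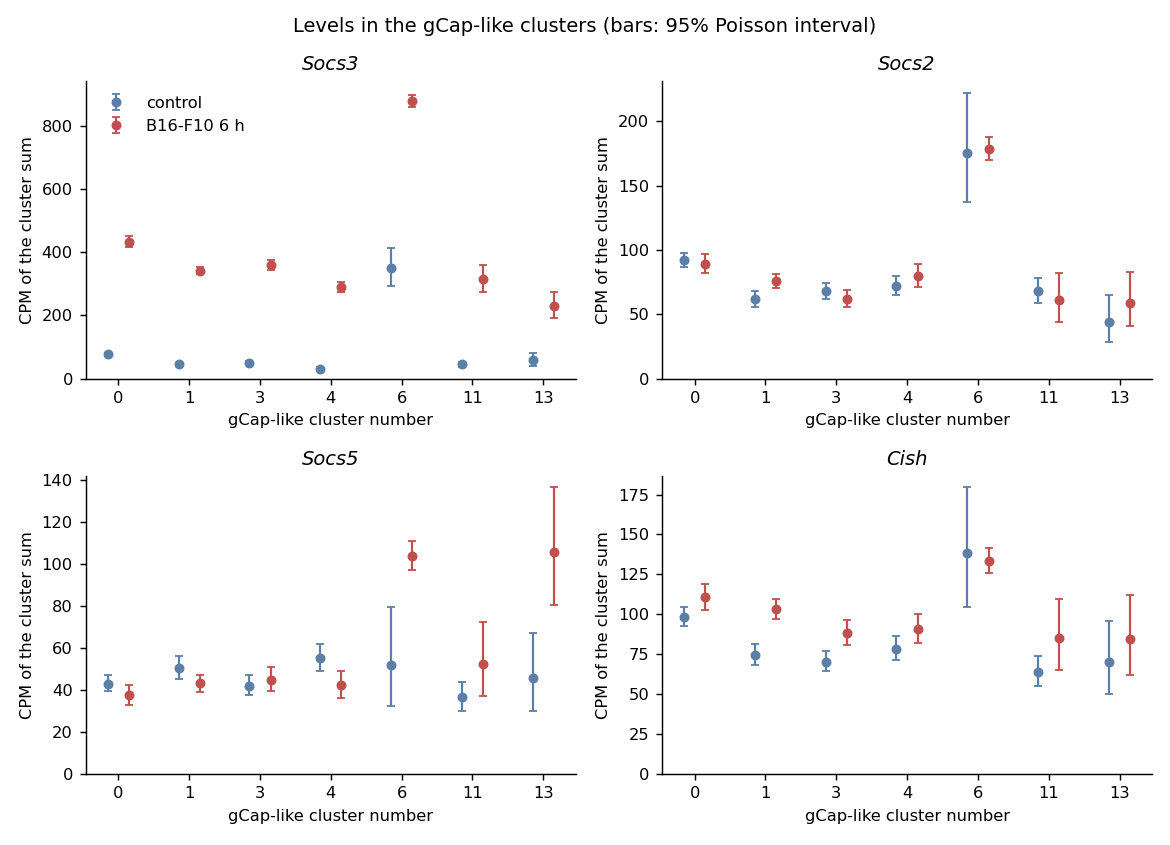
Level in CPM of the cluster sum (vertical axes, each starting at 0) of Socs3, Socs2, Socs5 and Cish in the 7 gCap-like clusters (horizontal axes, cluster numbers), control in blue and B16-F10 in red, with 95% Poisson intervals. Cluster 6, with 51 control and 917 B16-F10 cells, stands apart for Socs3 (349 and 878 CPM) and for Socs2 (176 and 178 CPM).

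Under the main settings, Socs4, Socs6 and Socs7 stayed within counting error of no difference in both capillary classes. In gCap-like cells Socs4 was 41.7 and 40.6 CPM (log2 ratio -0.04, -0.15 to 0.07), Socs6 25.9 and 26.7 CPM (0.04, -0.09 to 0.18) and Socs7 20.8 and 18.9 CPM (-0.14, -0.29 to 0.01). These intervals leave room for differences of up to 0.29 on the log2 scale. Socs7 in gCap-like cells became lower beyond counting error on thinning (-0.38, -0.70 to -0.06). It also did so with the SOCS and pathway genes kept in clustering (-0.16, -0.31 to -0.008). With doublets kept, Socs4 was lower in aCap-like cells (-0.18, -0.36 to -0.003). In artery-like cells Socs6 had 22 and 41 UMIs and a log2 ratio of 0.97 (0.19 to 1.79). This call was lost under other settings, at 0.198 (-0.36 to 0.75) under 10% mitochondrial UMIs, 0.50 (-0.14 to 1.16) at a clustering resolution of 1.6, 0.55 with doublets kept and 0.61 with no upper limit of genes. In vein-like cells Socs6 had 86 and 65 UMIs, with a log2 ratio of -0.48 (-0.97 to 0.004). There it was lower beyond counting error with doublets kept (-0.43, -0.84 to -0.03) and with cells from 500 genes (-0.45, -0.89 to -0.01). The same held with the SOCS and pathway genes kept in clustering (-0.53, -0.99 to -0.08). Under 10% mitochondrial UMIs (-0.35, -0.81 to 0.11) and on thinning (0.25, -1.03 to 1.55) it stayed within counting error.

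Across clusters of any class with at least 5 cells in each library and 50 UMIs of the gene in all, Socs3 was higher in B16-F10 lungs beyond counting error in 20 of 20, with log2 ratios from 0.96 to 4.15. Socs2 was so in 7 of 19 clusters, Cish in 6 of 17 and Socs1 in 3 of 6, where cluster 12 is 1 of the others. Some clusters reached 50 UMIs mainly through the B16-F10 library, such as cluster 20 with 5 and 109 Socs3 UMIs. The lymphoid-like cluster 22, with 3 and 22 Socs3 UMIs, did not enter, and its log2 ratio was 1.17 (-0.57 to 3.55). The share over all genes was not computed for single clusters, so these counts are a description. The highest Socs3 level of a gCap-like cluster was in cluster 6, at 349 CPM (294 to 412) in control and 878 CPM (858 to 898) in B16-F10 lungs. Without cluster 6 the log2 ratio of Socs3 in gCap-like cells was 2.69. Neutrophil-like cells, few in both libraries, also held Socs3, with 7 UMIs in 3 control cells and 81 UMIs in 19 B16-F10 cells, or 386 CPM (155 to 794) and 597 CPM (474 to 742). In macrophage- or monocyte-like cells there were 5 UMIs in 6 control cells and 138 in 36 B16-F10 cells. The 78 melanoma-like cells, all in the B16-F10 library, had 8 Socs3 UMIs, or 9.66 CPM (4.17 to 19.0), and at most 6 UMIs of any other member.

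Markers of other cells moved with the groups. In gCap-like cells the 8 melanoma markers summed to 27.5 CPM in control and 55.9 CPM in B16-F10 lungs, the 8 macrophage and monocyte markers to 20.3 and 33.3 CPM, the 8 neutrophil markers to 3.07 and 8.59 CPM, and the 8 mural cell markers to 23.3 and 39.7 CPM. Lymphoid and platelet markers differed less, with 1.47 and 1.496 CPM, and 22.1 and 23.3 CPM. Of the melanoma list 5 of 8 genes were detected in control and 8 of 8 in B16-F10 lungs, of the macrophage list 7 and 8, of the neutrophil list 6 and 8, and of the mural list 8 and 8. In aCap-like, artery-like, vein-like and LEC-like cells the melanoma and macrophage sums were also higher in the B16-F10 library. Platelet markers in artery-like cells went from 5.04 to 35.6 CPM (7 and 47 UMIs), mural markers in vein-like cells from 168 to 98.6 CPM, and macrophage markers in LEC-like cells from 539 to 862 CPM. In the 2724 control and 1534 B16-F10 gCap-like cells without a UMI of any other cell's marker, the log2 ratio of Socs3 was 3.15. In such cells the ratios of Socs1 (1.29), Socs2 (0.46), Socs5 (0.30) and Cish (0.41) also stayed above 0 beyond counting error, and those of Socs4, Socs6 and Socs7 did not differ from 0 beyond it. Without marker-bearing cells, Socs3 was 2.33 in artery-like and 1.596 in vein-like cells, and 2 Socs3 UMIs were left in LEC-like cells of either library, too few for a ratio.

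Within each library, Socs3 was also compared across gCap-like cells by the summed UMIs of 44 rCap markers, which do not include the SOCS genes. The study chose these markers on samples that include these, and some of them are also pathway genes. A rise of a member with this score is therefore a description and not independent evidence. Cells were thinned to 2000 UMIs and split into 4 equal bins by this score, and cells are not replicates of a condition. In control lungs the share of cells with a Socs3 UMI was 6.41% (5.05 to 8.01%) in the lowest bin and 13.5% (11.6 to 15.7%) in the highest. In B16-F10 lungs it was 29.2% (26.5 to 32.1%) in the lowest bin, 38.2% and 51.1% in the middle bins, and 73.5% (70.7 to 76.1%) in the highest. The lowest B16-F10 bin had a median score of 22 UMIs, the same as the third control bin, where 10.2% of cells (8.45 to 12.1%) had a Socs3 UMI. The share of cells with a Socs2 UMI was 11.4% and 16.9% in the lowest and highest control bins, and 11.6% and 26.0% in the B16-F10 bins. For Cish the shares were 15.3% and 14.3% in control and 14.8% and 21.9% in B16-F10 lungs, and for Socs5 9.08% and 7.75%, and 7.50% and 14.7%.

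**Figure D4:**
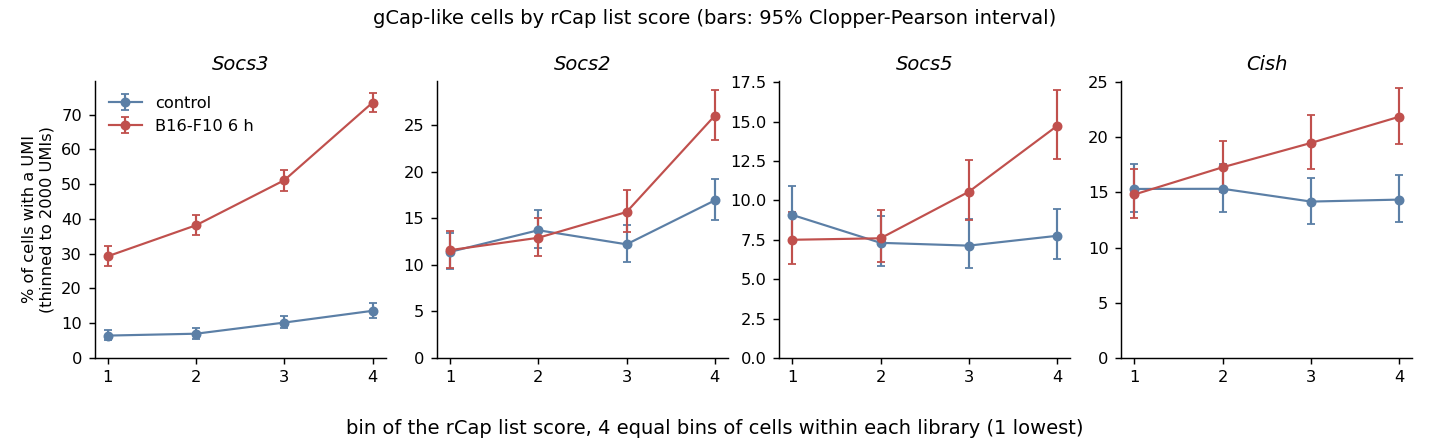
Percentage of gCap-like cells with a UMI of Socs3, Socs2, Socs5 or Cish after thinning to 2000 UMIs (vertical axes, each starting at 0) by bin of the summed rCap markers within each library (horizontal axis, 4 equal bins of cells, 1 lowest), control in blue and B16-F10 in red, with 95% Clopper-Pearson intervals. The Socs3 share runs from 6.41% to 13.5% over the control bins and from 29.2% to 73.5% over the B16-F10 bins.

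Cells with a Socs3 UMI also held other transcripts of the pathway. In thinned B16-F10 gCap-like cells, Pim3, a STAT-induced serine/threonine kinase, was found in 43.0% of the 2021 cells with a Socs3 UMI (40.8 to 45.2%) and 22.2% of the 2189 without (20.4 to 24.0%). Bcl3, an NF-kappa B regulator, was found in 24.3% (22.4 to 26.2%) and 14.0% (12.6 to 15.5%). Members of the family differed less. Socs2 was found in 18.0% (16.4 to 19.8%) and 15.2% (13.7 to 16.8%), and Cish in 19.99% (18.3 to 21.8%) and 16.9% (15.3 to 18.5%) of these cells. Jak2 was found in 16.6% (15.0 to 18.3%) and 12.9% (11.5 to 14.4%) of these B16-F10 cells, with intervals that do not overlap. In control lungs Pim3 was found in 17.1% of the 416 cells with a Socs3 UMI (13.6 to 21.03%) and 8.91% of the 4073 others (8.05 to 9.83%). Bcl3 was found in 4.33% (2.58 to 6.75%) and 3.58% (3.03 to 4.20%) of these control cells, and Jak2 in 9.13% (6.55 to 12.3%) and 10.8% (9.84 to 11.8%), with intervals that overlap. Cish was found in 19.2% (15.6 to 23.4%) and 14.3% (13.3 to 15.5%) of these control cells, with intervals that do not overlap. For Socs2 the control shares were 13.9% (10.8 to 17.6%) and 13.5% (12.5 to 14.6%).

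The rest of the pathway was examined in 86 genes from 8 groups. In gCap-like cells 71 were measured, of which 14 passed 2-fold upward in B16-F10 lungs and 0 downward, against 2.97% and 2.69% of all genes measured. Of the 14, 7 (Bcl3, Cebpd, Il4ra, Myc, Osmr, Pim3 and Sbno2) are also markers of rCap that the study chose on samples that include these, so their direction is not independent evidence. Among 4 measured cytokines 0 passed 2-fold, and their log2 ratios had a median of -0.36. Il6, Lif and Osm, some of the listed ligands of the gp130 family, were almost absent from gCap-like cells. Il6 had 0 UMIs in either library, Lif 0 and 5, and Osm 2 and 7. Il11 had 3 and 10 UMIs. Clcf1, also of the gp130 family, was present, with 489 UMIs (14.4 CPM) in control and 338 UMIs (9.19 CPM) in B16-F10 lungs. Its log2 ratio was -0.65 (-0.85 to -0.45). Of 18 measured cytokine receptors 2 were at least 2-fold higher. Il4ra, the interleukin-4 receptor chain, went from 156 to 429 CPM, a log2 ratio of 1.46 (1.42 to 1.51), and Osmr, the oncostatin M receptor, from 70.1 to 146 CPM, a ratio of 1.06 (0.99 to 1.13).

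Janus kinases showed smaller ratios of both signs in gCap-like cells. The log2 ratio was 0.86 (0.69 to 1.03) for Jak3, 0.61 (0.53 to 0.69) for Jak2, 0.38 (0.34 to 0.41) for Jak1 and -0.42 (-0.56 to -0.28) for Tyk2. Of 6 measured STAT factors 0 passed 2-fold, and their median was 0.22. The elongin, cullin and RING partners of the SOCS box had 0 of 6 past 2-fold and a median of 0.19. Among 10 measured inhibitors outside the family, PIAS proteins and phosphatases among them, 0 passed and the median was 0.02. Of 7 measured genes of other SOCS box families, Spsb1, a substrate receptor of the same ligase type, was past 2-fold at 1.00 (0.65 to 1.37). Of all genes measured in gCap-like cells, 2.97% were at least 2-fold higher and 2.69% at least 2-fold lower. Counts of 0 or 1 in groups this small therefore say little about them.

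Genes known to be switched on by STATs showed the highest ratios of the 8 groups. Of 16 such genes 11 passed 2-fold upward in gCap-like cells, against 2.97% of all genes, where their median was 2.04 on the log2 scale. Among the 11, Bcl3, Cebpd, Myc, Pim3 and Sbno2 are rCap markers that the study chose on samples that include these. Their direction is not independent evidence. The list was also chosen with earlier results of these data known, so the counts past 2-fold are a description. Myc, a growth regulator, had 17 and 469 UMIs and a log2 ratio of 4.67 (3.97 to 5.46). Bcl3 stood at 2.68 (2.56 to 2.81), Junb at 2.37 (2.33 to 2.42), Timp1 at 2.36 (1.88 to 2.87), Pim3 at 2.33 (2.26 to 2.405), and Fos at 2.33 (2.26 to 2.404). The transcription factor Cebpd stood at 2.18 (2.15 to 2.21), Arid5a at 2.04 (1.89 to 2.20), Sbno2 at 2.03 (1.94 to 2.12), Bcl6 at 1.66 (1.499 to 1.82) and Cebpb at 1.55 (1.37 to 1.74). Several of them, Fos, Junb and Myc among them, also respond to stress and growth factors. In aCap-like cells 10 of 15 measured targets were at least 2-fold higher, in artery-like 7 of 14, in vein-like 10 of 15 and in LEC-like 1 of 8, with medians of 1.67, 1.14, 1.25 and 0.38. Of all genes measured in these classes, 2.18%, 2.05%, 1.56% and 1.53% passed.

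**Figure D5:**
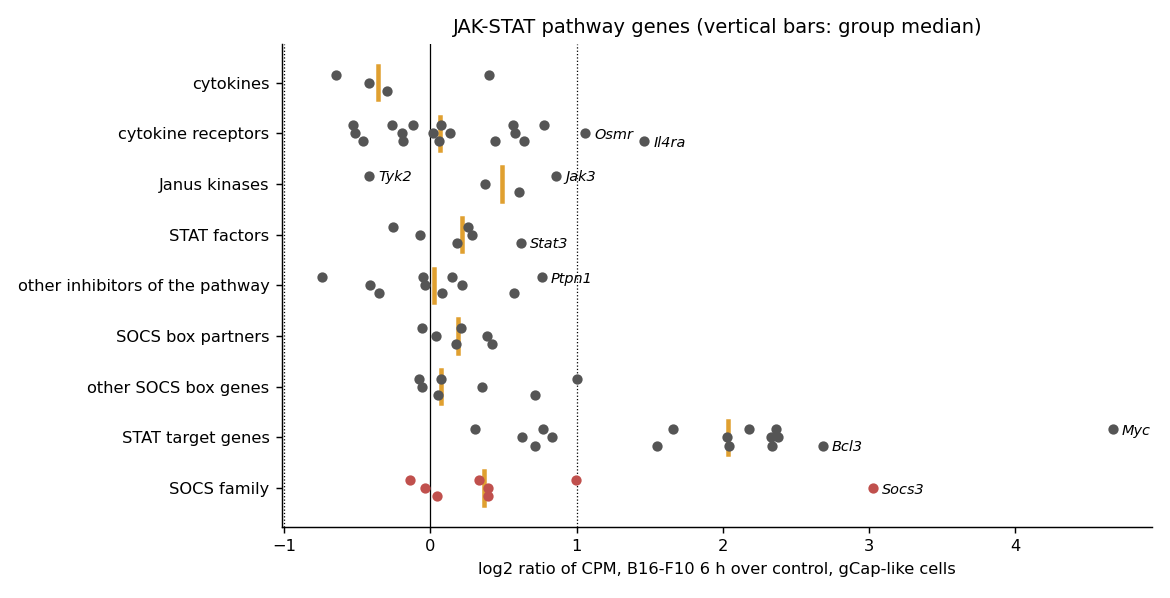
Log2 ratio of CPM in gCap-like cells, B16-F10 over control (horizontal axis), of the measured genes of each pathway group and of the SOCS family (rows), where each point is a gene, the vertical bar is the median of the group, and dotted lines mark 2-fold. The medians are 2.04 for STAT target genes and 0.36 for the SOCS family.

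Genes with a pattern most like each member were ranked by Pearson's r of log2(CPM + 1) over 10 sums, the 5 vessel classes in both libraries, among 11744 genes. The sums share 2 libraries, so r is a description. Closest to Socs3 were Cebpd (r = 0.973), Stat3 (0.968), Atf3 (0.935), Actg1 (0.930) and Junb (0.928). Closest to Socs2 were Gbp5 (0.966), mt-Atp6 (0.948), Naa10 (0.945), mt-Nd5 (0.938) and mt-Nd4 (0.937). Closest to Cish were Dpf2 (0.988), Nkd1 (0.980), Mfap2 (0.978), Lrrc8dos (0.977) and Lrrc8b (0.976). For Socs1, Socs4, Socs5, Socs6 and Socs7 the first places went to Mdp1, Zfp69, Slc25a22, Gpr19 and Zfp748, with r from 0.933 to 0.962.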

How the data were processed

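The authors deposited raw counts of UMIs per gene and barcode for 2 libraries, with no normalization and all barcodes listed. Per the file headers and the submitters' processing notes, Cell Ranger 7.2.0 and the mm10 build were used, while the study's methods name an earlier version. Whether intron reads were counted is not given in the sources used here, and counting them would raise the long genes Socs2, Socs5, Socs6 and Socs7. The libraries held 85794655 and 104978816 UMIs.

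Barcodes were taken as cells at 1000 to 5000 genes, with less than 20% of UMIs mitochondrial. Scrublet in scanpy 1.11.5 called 564 and 554 doublets (6.72% and 6.66%), which were left out. Counts were scaled to 10000 UMIs per cell, and 2938 variable genes, without the SOCS, pathway, rCap and interferon genes, gave 30 principal components, 20 neighbours and 30 Leiden clusters (resolution 0.8, with non-endothelial clusters split again). A cluster took a class name when at least 3 markers and 50% of the class list were at least 1.5-fold above the other clusters and in at least 10% of cells. To count as endothelial, a cluster had to hold 6 of 8 such markers in 50% of its cells or more. These thresholds were set after clusters had been seen. Clusters that also passed another cell class with at least 4 endothelial markers were called mixed (918 and 1336 cells), and ECs without a vessel class stayed unnamed (388 and 575 cells).

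Class sums of UMIs in each library were expressed as CPM with exact Poisson intervals. Log2 ratios have exact conditional binomial intervals, differences between ratios a normal approximation, and shares of cells Clopper-Pearson intervals, all at 95%. Free RNA was taken from barcodes with 1 to 100 UMIs and scaled by 8 blood and epithelial genes. The intervals and calls were tried on counts simulated with Poisson error only. Such counts hold no spread between libraries or cells, so the trial cannot show how the intervals hold for real libraries. The text names all 8 members, pathway genes past 2-fold in gCap-like cells with at least 50 UMIs, the 4 Janus kinases, and the genes most like each member, of 5 ranked, among genes with at least 200 UMIs. The members and lists were chosen with earlier results of these data known. Other names in the text, such as Il6, Lif, Osm and cluster 12, were chosen after values were seen. Alternatives concerned scaling, free RNA, depth, doublets, cell filters, clustering and the limits of the calls. Tools were Python 3.11.15, numpy 2.4.6, scipy 1.17.1 and leidenalg 0.10.2.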

Additional observations from a re-analysis of the deposited data

Results flagged for a closer look

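Socs3 and Socs1 were also more abundant in barcodes that were not used as cells. In the B16-F10 library, barcodes with 1 to 100 UMIs had 366 CPM of Socs3 and 7.58 CPM of Socs1, against 54.3 and 2.82 CPM in the control library. Among larger barcodes, Socs3 reached 364 CPM below 300 genes (32.1 CPM in control), 170.1 CPM from 300 to under 1000 genes (21.5 CPM) and 311 CPM above 5000 genes (55.4 CPM). The share of these UMIs that came from free RNA was not tested.

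Socs5 had ratios of opposite sign in the capillary classes, with a log2 ratio of 0.34 in gCap-like and -0.38 in aCap-like cells. With 1 library per group, no test of this contrast beyond counting error was possible, so it was not tested, and the gCap-like value changed sign without cluster 6 (-0.0707).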

How the results depend on the processing

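Of 495 values under other settings, for 43 results, 454 moved by less than their interval and 40 moved by more. The remaining 1 changed sign although its main interval lay wholly on 1 side of 0. Ratios whose main interval held 0 also changed sign in places and are counted among the 454 or the 40. On thinning to 2000 UMIs, for example, Socs6 in vein-like cells went from -0.48 to 0.25 and Cish in aCap-like cells from 0.11 to -0.10. The value counted apart was Socs5 in gCap-like cells without cluster 6 (log2 ratio -0.0707), a setting added after the data were seen. The same setting moved Socs2 to 0.0196, Cish to 0.29 and Socs3 to 2.69. In cells without a UMI of other cells' markers, also added later, Socs3 was 3.15 in gCap-like and 2.33 in artery-like cells, and Socs4 -0.16 in gCap-like cells. Socs3 in gCap-like cells was 2.94 with doublets kept, 2.91 when cells from 500 genes entered, 2.91 when cells above 5000 genes entered, 3.13 under 10% mitochondrial UMIs and 2.94 with the SOCS and pathway genes kept in clustering. Under 10% mitochondrial UMIs Socs2 was 0.49 and Socs5 0.44, and with doublets kept Socs3 was 2.20 in artery-like cells. Summing all ECs gave 2.74 for Socs3, 0.47 for Socs2, 0.28 for Cish and 0.16 for Socs5, since other classes entered. Thinning to 2000 UMIs gave 3.58 for Socs3 in aCap-like cells, and -0.14 for Socs6 and -0.38 for Socs7 in gCap-like cells. With fewer UMIs left, it also ended the calls of Socs5 in aCap-like cells (-0.29, -0.63 to 0.04) and of Socs6 and Cish in artery-like cells (6 and 12 UMIs each), and Socs7 in gCap-like cells became lower beyond counting error. The share of gCap-like cells with a Socs3 UMI was 16.1% and 65.3% at 4000 UMIs and 23.6% and 76.8% without thinning, since deeper cells show more. Socs1 joined Socs3 past the limit, giving 2 members, at 1.5-fold or when the median ratio over all genes (-0.04) was set to 0. Other causes were not tested. No paired analysis was possible because control and B16-F10 lungs gave 1 library each. Depth limited Socs1 outside capillary cells and all members but Socs3 in LEC-like cells.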
